A study of Homo sapiens with 3 samples.

Results

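At day 1 of the culture, 408 cells carried at least 2 UMIs of TFAP2A and at least 1 UMI of GATA3, and these are called double-positive cells below. A UMI is a molecular tag that marks 1 captured RNA molecule. They were 11.1% (95% exact binomial interval 10.1 to 12.2) of the 3677 day 1 cells kept, and the series kept 18830 cells over 3 libraries. The cells set against them were the 1556 day 1 cells with 0 UMIs of both genes, called double-negative. The cells are of UCLA1, a human embryonic stem cell line in established use, grown under a Geltrex overlay in the culture named GiMO and harvested at days 1, 2 and 3, with 1 library a day. All groups share the line and the culture, and the labels used here do not say whether or when BMP4 was added. The study's title concerns a BMP4 response and the induction of TFAP2A+ cells in a model of the embryonic disc. Since a day is 1 library, no comparison here has a replicate check, no test was possible, and every interval is a 95% interval that covers counting error only.

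TFAP2A encodes AP-2 alpha, a transcription factor of surface ectoderm, neural crest and amnion, and GATA3 encodes a zinc finger factor of trophoblast, amnion and T cells. BMP ligands bind paired serine/threonine kinase receptors, which phosphorylate SMAD factors that enter the nucleus and switch on targets such as the ID genes, and TFAP2A and GATA3 are among the early genes that human pluripotent cells express under BMP. The same cells can also turn on the genes of the primitive streak, the site where mesoderm and endoderm arise, through WNT and NODAL ligands. Amnion and streak genes are therefore both of interest in cells picked for TFAP2A and GATA3.

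TFAP2A (ENSG00000137203, chromosome 6, 10393186 to 10419659) and GATA3 (ENSG00000107485, chromosome 10, 8045378 to 8075198) chose the cells: members were selected on the raw UMI counts of these 2 genes, and their levels are a description only. Positions are those of GENCODE release 44 on hg38. Of the double-positive cells 183 had 2 TFAP2A UMIs, 83 had 3 and 54 had 4, with a median of 3 and a maximum of 21. For GATA3, 109 had 1 UMI, with a median of 2 and a maximum of 13. Most members therefore stood close to the threshold. Just outside it were 400 cells with 1 TFAP2A UMI and at least 1 GATA3 UMI, and 86 cells with at least 2 TFAP2A UMIs and 0 of GATA3, called TFAP2A-only. A further 1012 cells had GATA3 and 0 TFAP2A UMIs, called GATA3-only. In summed UMIs TFAP2A stood at 53.4 CPM (UMIs per 1000000 UMIs summed) in double-positive cells, 51.0 CPM in TFAP2A-only cells and 13.1 CPM over all kept cells, and GATA3 at 48.3, 0 and 22.3 CPM in the same order.

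How far the rule picks out cells of higher level, and not just deeper cells, was read from the counts that a single TFAP2A and GATA3 level in every cell would give at each cell's own depth. At the lowest threshold these were alike, with 494 cells at 2 or more TFAP2A UMIs and 508 for a single level, and with 408 double-positive cells and 374 for a single level. At higher thresholds they parted. At 5 or more TFAP2A UMIs there were 97 cells and 6.29 for a single level, and at 5 or more TFAP2A with 3 or more GATA3 UMIs there were 65 cells and 1.96. At days 2 and 3 the same rule gave 227 and 217 double-positive cells, where a single level would give 97.4 and 93.1.

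**Figure D1:**
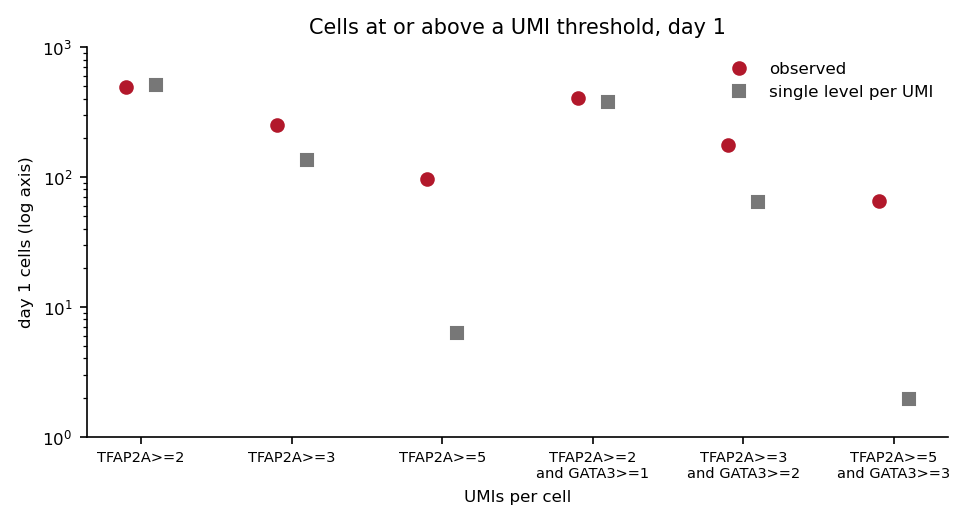
Day 1 cells at or above each UMI threshold for TFAP2A, alone or with GATA3 (vertical log axis, number of cells), as observed (circles) and as a single level per UMI would give (squares). The values lie close at 2 TFAP2A UMIs, with 494 and 508 cells, and apart at 5 TFAP2A and 3 GATA3 UMIs, with 65 and 1.96 cells.

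The double-positive cells were deeper than the cells they are compared with. Their median was 65791.5 UMIs and 8678.5 genes a cell, against 34850.5 UMIs and 6628.5 genes in double-negative cells. Their median mitochondrial share was 4.18%, against 4.53%, and their ribosomal protein share 21.5%, against 22.7%. Ratios are therefore given against all double-negative cells and against 408 double-negative cells paired to them on depth, whose median was 62872.5 UMIs. The part of cell size in the results was not tested. The kept cells of days 1, 2 and 3 had medians of 42295, 16007.5 and 19576 UMIs, and 5, 10 and 13 barcodes were shared by days 1 and 2, days 1 and 3, and days 2 and 3.

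Among 9195 genes with at least 10 CPM in either class, 239 (2.6%) were at least 1.5-fold higher and 70 (0.761%) at least 1.5-fold lower in double-positive cells, and the median log2 ratio of all these genes was 0.05. Of the genes past the fold 77.3% were higher, a share that was 66.2% with TMM scaling and 65.7% with median-of-ratios scaling. Against the depth-paired cells 269 of 9210 genes (2.92%) were higher and 73 (0.793%) lower, and 220 of the 239 and 61 of the 70 were past the fold there too.

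The rule for naming genes asked for 20 CPM or more in the class with the higher level, and the 15 with the highest ratios among them were led by genes of WNT signalling and the primitive streak. Sparser genes described with the lists below, HAND1, DLX5, MSX1 and CDX2 among them, had higher ratios than any of the 15. WLS (ENSG00000116729, chromosome 1, 68098473 to 68233120), the carrier that brings WNT proteins to the cell surface, was at 52.3 CPM in double-positive cells and 6.19 CPM in double-negative cells, 8.45-fold higher (7.53 to 9.50) and 11.3-fold against the paired cells. LEF1, the DNA-binding partner of beta-catenin, was at 25.2 and 4.17 CPM, 6.05-fold higher (5.23 to 7.03). WNT5B, a WNT ligand, was 5.40-fold higher, NKD1, a feedback inhibitor of the pathway, 5.17-fold, and SP5, a zinc finger factor and known WNT target, 4.23-fold. MIXL1 (ENSG00000185155, chromosome 1, 226223618 to 226227060), a homeobox factor of the streak, was at 37.6 and 6.43 CPM, 5.84-fold higher (5.19 to 6.59), and EOMES, a T-box factor of the streak, at 44.6 and 12.0 CPM, 3.71-fold. Of BMP genes, the target MSX2 was 3.55-fold and the ligand BMP7 3.00-fold higher. The other 6 of these 15 genes were GAD1, a glutamate decarboxylase (4.12-fold), the kinase PRKD1 (3.06-fold), the long non-coding RNA PCAT14 (3.04-fold, at 989 and 325 CPM), the fibrillin FBN2 (2.81-fold), TSPEAR (2.76-fold) and SLIT2, a ligand of ROBO receptors (2.59-fold).

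Before the lists are taken in turn, the start of 2 of these genes can be shown. The 250 bases before the RefSeq start of SP5 and of CDX2 (GRCh38.p14, gene strand, 5′ to 3′) are printed because each holds a match to both a LEF/TCF and a GATA motif, and both genes were higher in double-positive cells. Capitals mark either motif on either strand. The LEF/TCF motif searched was CTTTGAA, which reads TTCAAAG on the other strand. For GATA the letters were AGATAA, and the reverse is TTATCT.
SP5, chr2:170715087-170715336, + strand: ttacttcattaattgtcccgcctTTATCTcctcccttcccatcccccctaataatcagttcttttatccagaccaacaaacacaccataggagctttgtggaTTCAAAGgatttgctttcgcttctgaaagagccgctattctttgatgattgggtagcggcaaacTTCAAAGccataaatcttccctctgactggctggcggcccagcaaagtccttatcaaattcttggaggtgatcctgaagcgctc
CDX2, chr13:27969316-27969565, - strand: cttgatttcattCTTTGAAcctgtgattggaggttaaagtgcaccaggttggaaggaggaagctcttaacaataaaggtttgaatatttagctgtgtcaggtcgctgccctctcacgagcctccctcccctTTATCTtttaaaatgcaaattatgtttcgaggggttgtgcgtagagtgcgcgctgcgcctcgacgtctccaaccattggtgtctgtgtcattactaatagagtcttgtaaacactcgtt
Both motifs were rare in either set of starts. Of 181 genes with a RefSeq start among those higher in double-positive cells, 4.42% had the LEF/TCF motif, against 3.40% of 7377 genes at 10 CPM and 4.71% of 27305 genes in all, and the GATA motif was in 7.73%, 6.70% and 11.1%. The TFAP2 motif GCCNNNGGC was in 40.3% of those 181 starts, against 34.0% of expressed and 23.0% of all starts, and the GC-rich SMAD motif GGCGCC in 41.4%, against 33.2% of expressed starts. The TFAP2 and SMAD motifs can overlap each other. A match describes these letters and is not a binding site.

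The amnion list held 20 genes, of which TFAP2A and GATA3 were left out and 12 of the other 18 reached 2 CPM. Of these 9 were higher and 0 lower, with a median log2 ratio of 1.88 (1.58 to 2.19), where 4.31% of all 13629 genes at 2 CPM were higher, 1.34% lower and the median was 0.06. This count describes the genes that passed the minimum and is no support for the list: 5 of the 12 (HAND1, DLX5, TBX3, GATA2 and ISL1) reached 2 CPM only in double-positive cells, so they had to be higher there. Of the 7 that reached it in double-negative cells 4 were higher and 0 lower, and no median of these 7 was taken. For the list, the median was 1.36 with a minimum of 10 CPM and 1.88 (1.14 to 2.42) with none. The 10 CPM could also be met in either class. Genes that met it only in double-positive cells, such as CDX2, had to be higher there too, so 1.36 is a description as well. HAND1 (ENSG00000113196, chromosome 5, 154474972 to 154478227), a basic helix-loop-helix factor of amnion and also of lateral and extraembryonic mesoderm, was at 8.84 CPM in double-positive cells and 0.709 CPM in double-negative cells, 12.5-fold higher (8.96 to 17.8). DLX5, a homeobox factor, was at 4.53 and 0.388 CPM, 11.7-fold higher (7.44 to 19.1), and CDX2 (ENSG00000165556, chromosome 13, 27960918 to 27969315), a caudal homeobox factor of trophoblast, streak and hindgut, at 19.6 and 2.24 CPM, 8.73-fold (7.20 to 10.6). TBX3 was 7.29-fold, GATA2 4.29-fold, ISL1 3.85-fold, the prostaglandin-degrading enzyme HPGD 1.87-fold and BMP4 1.81-fold higher. Some members are in more than 1 list. CDX2 also counts in the streak list, and HAND1 and BMP4 in the mesoderm list, so the rises of these lists are not separate findings.

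Other genes of the same list stood near the double-negative level. KRT7, a keratin, stood at 2.75 CPM in double-positive and 2.77 CPM in double-negative cells, IGFBP3, an IGF-binding protein, at 3.46 and 3.14 CPM, and TFAP2C at 17.1 and 13.2 CPM, all within 1.5-fold. Below 2 CPM were GABRP, a GABA receptor subunit, at 1.04 and 1.60 CPM and VTCN1, an immune checkpoint protein of amnion and trophoblast, with 1 and 5 UMIs. TFAP2B had 2 and 0 UMIs in all. WNT6 had 32 and 4 UMIs, and 1 cell gave 15.6% of the 32. These UMIs are out of 26908668 in double-positive and 59258872 in double-negative cells, so the counts are not levels.

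Each cell was also thinned at random to 20000 UMIs, which left 402 double-positive and 1258 double-negative cells and left out 6 and 298 shallower ones. CDX2 then had a UMI in 27.6% (23.3 to 32.3) of double-positive cells and 3.66% (2.69 to 4.85) of double-negative cells, where the unthinned shares were 48.8% and 6.23%. HAND1 was in 10.9% and 1.19%, GATA2 in 14.2% and 3.10%, and MSX1 in 20.6% and 2.23%. KRT7 was in 4.98% and 4.61% and GABRP in 1.99% and 3.18%. For both genes the intervals of the classes overlapped. These intervals cover counting error only, and the difference between the classes was not tested. TFAP2B was in 0 of 402 cells, which allows a share of up to 0.913% by the exact interval.

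BMP response genes were higher in the same cells, MSX1 and ID2 more so than ID1. Past the fold were 11 of 14 measured, all upward, and the median log2 ratio of the 14 was 1.12 (0.92 to 1.22). Of all genes at 2 CPM 4.31% were higher and 1.34% lower. Of the 14, 4 reached 2 CPM only in double-positive cells, and 7 of the other 10 were higher. MSX1, a homeobox target, was at 15.8 CPM in double-positive cells and 1.40 CPM in double-negative cells, 11.3-fold higher (8.92 to 14.5). ID2 (ENSG00000115738, chromosome 2, 8678845 to 8684461), which blocks DNA binding by helix-loop-helix partners, stood at 256 and 117 CPM, 2.19-fold (2.11 to 2.26), the inhibitory SMAD6 2.15-fold, ID4 1.83-fold, ID3 1.58-fold and the decoy receptor BAMBI 1.54-fold higher. ID1, at 804 and 672 CPM, was 1.20-fold higher and SMAD7 1.01-fold. Upstream of them, the ligands BMP7 and BMP4 and the activin-binding FST (1.83-fold) were higher. None of 9 receptors and SMADs passed the fold, and BMPR2 was nearest at 1.45-fold. Of the GATA family, GATA2, GATA4 (4.33-fold) and GATA5 (4.49-fold) were the 3 measured and all were higher. All 3 reached 2 CPM only in double-positive cells, so they had to be higher there and the count is no support.

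Primitive streak and WNT response genes also stood above the double-negative level. Upward past the fold were 10 of 12 measured (median log2 ratio 1.99, 1.84 to 2.13), and of 9 measured WNT response genes 8 were higher, with a median of 1.81 (1.54 to 2.08). For all genes at 2 CPM the share higher was 4.31%. Only in double-positive cells did 3 of these streak genes and 2 of the WNT genes reach 2 CPM, and of the others 7 of 9 and 6 of 7 were higher. EVX1, a homeobox factor of the posterior streak, was at 16.5 CPM in double-positive cells and 2.26 CPM in double-negative cells, 7.31-fold higher (6.02 to 8.94). CDX1 was 7.18-fold and TBXT, which encodes brachyury, 6.63-fold higher (5.33 to 8.29), at 12.4 and 1.87 CPM. WNT3, the ligand that opens streak formation in the mouse, was 2.07-fold higher, NODAL 1.49-fold and FGF8 1.41-fold. Among WNT targets NOTUM, a WNT deacylase, was 6.14-fold, the ubiquitin ligase RNF43 3.50-fold and AXIN2 2.36-fold higher. Mesoderm genes that follow the streak were sparse, with 6 of 15 at 2 CPM, of which HAND1, LEF1, LHX1 and BMP4 were higher. Of these 6, 2 reached 2 CPM only in double-positive cells, so they had to be higher there, and 2 of the other 4 were higher. MESP1 had 34 UMIs in 27 double-positive cells and TBX6 had 11 UMIs.

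Pluripotency genes were kept at levels near those of double-negative cells, with a few exceptions. Among 18 measured core genes 2 were lower and 0 higher, and the median log2 ratio was -0.12 (-0.18 to -0.06). For all genes at 2 CPM the shares were 1.34% lower and 4.31% higher. POU5F1 was at 1148 CPM in double-positive cells and 1194 CPM in double-negative cells, and NANOG at 56.6 and 61.1 CPM. PRDM14 (ENSG00000147596), a regulator of pluripotent and germline cells, was at 9.14 and 26.1 CPM, 0.350 times (0.305 to 0.401), and UTF1 was at 0.615 times. SOX2 (ENSG00000181449, chromosome 3, 181711925 to 181714436) was at 135 and 202 CPM, 0.670 times (0.646 to 0.696), just inside the fold, and at 0.618 times against the paired cells. POU5F1 has pseudogenes with which it may share reads.

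The lowest ratio of the named genes was that of LEFTY1 (ENSG00000243709, chromosome 1, 225886282 to 225911382), a secreted antagonist of NODAL, at 33.6 CPM in double-positive cells and 109 CPM in double-negative cells, 0.308 times (0.287 to 0.331). Its near-identical neighbour LEFTY2 was at 24.2 and 65.6 CPM, 0.368 times, and reads shared by the pair could be split in the authors' counting. CER1, a further antagonist of NODAL and BMP, was at 5.20 and 13.3 CPM, 0.391 times, and these were the 3 of 9 measured NODAL response genes that were lower. For all genes at 2 CPM the share lower was 1.34%. NODAL itself was at 83.8 and 56.1 CPM and its coreceptor TDGF1 at 183 and 199 CPM. Further lower genes were SORBS2, a cytoskeletal adaptor (0.425 times), the ubiquitin ligase HECW1 (0.448), the SLIT receptor ROBO2 (0.458), the lysine-degrading AASS (0.517), the metallothionein MT1H (0.537), the endothelin receptor EDNRB (0.538), FOXD3-AS1 (0.541), the retinol acyltransferase LRAT (0.548), NAV3 (0.548), AC091820.1 (0.551) and the deubiquitinase USP44 (0.552). FOXD3 itself was at 0.379 times, and how far an antisense pair shares reads depends on counting that the sources used here do not describe. MT1H belongs to a family of close copies.

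**Figure D2:**
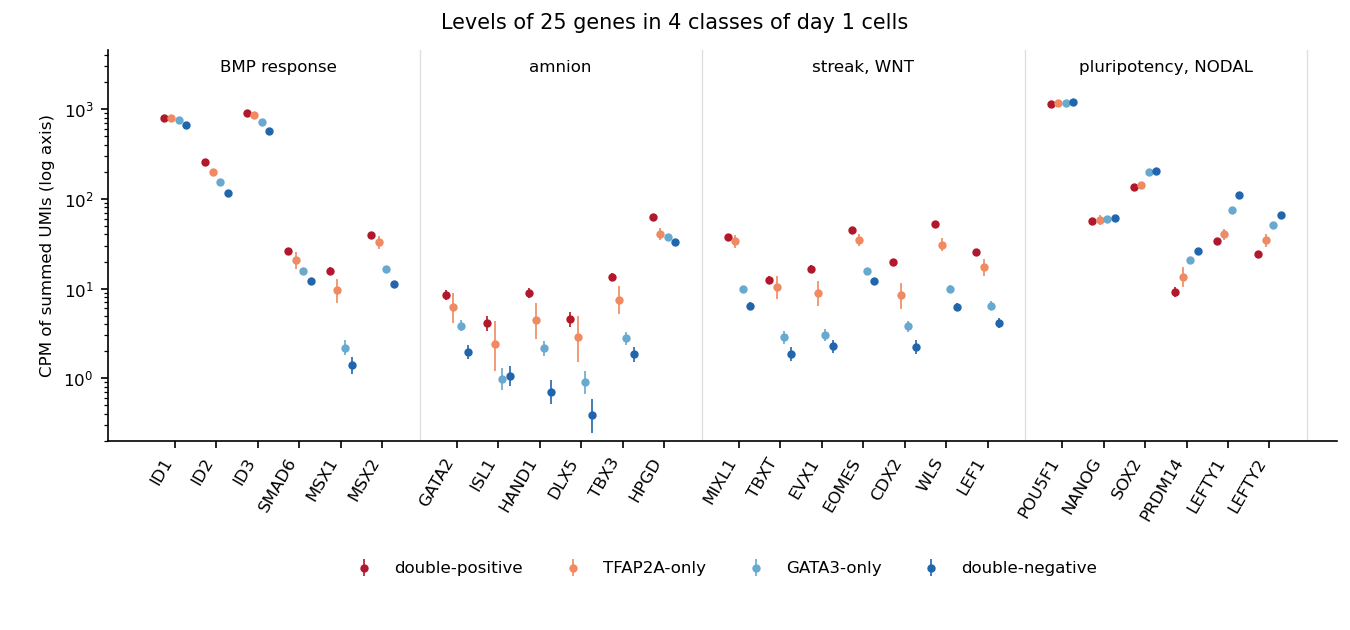
Levels of 25 genes (vertical log axis, CPM of summed UMIs) in double-positive, TFAP2A-only, GATA3-only and double-negative day 1 cells, with exact Poisson 95% intervals as bars. CDX2 stands at 19.6 CPM in double-positive and 2.24 CPM in double-negative cells, LEFTY1 at 33.6 and 109 CPM, and POU5F1 at 1148 and 1194 CPM.

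The classes that meet only 1 side of the rule can be read beside the double-positive cells, each over the same double-negative cells. In TFAP2A-only cells the median log2 ratio was 1.65 for streak, 1.54 for WNT, 1.37 for amnion and 0.76 for BMP response genes, where 5.03% of all genes were higher, 3.24% lower and the median of all was 0.02. In GATA3-only cells the same medians were 0.41, 0.36, 0.46 and 0.37, where 0.216% of genes were higher, 0.119% lower and the median was 0.02. The cuts are unlike, at least 2 TFAP2A UMIs for one class and at least 1 GATA3 UMI for the other. At day 1, 1820 cells had a GATA3 UMI, where a single level would give 2217. The classes also held 4510750 and 51552396 UMIs, so counting error is larger in TFAP2A-only cells. The 2 genes cannot be ranked from these values. CDX2 was at 19.6 CPM in double-positive, 8.42 CPM in TFAP2A-only and 3.82 CPM in GATA3-only cells. SOX2 was at 135, 142 and 201 CPM and MIXL1 at 37.6, 33.5 and 9.76 CPM in the same order. These 3 classes were set against shared double-negative cells, so their ratios are not independent of each other. In the 400 cells just outside the rule, with 1 TFAP2A UMI, CDX2 was at 9.92 CPM, MIXL1 at 18.6 CPM, LEFTY1 at 47.0 CPM and SOX2 at 180 CPM, between double-positive and double-negative cells for each of these 4 genes.

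Within the double-positive cells, levels went with the number of TFAP2A UMIs. In cells with 2, with 3 to 4 and with 5 or more TFAP2A UMIs (183, 137 and 88 cells), CDX2 was at 12.8, 15.5 and 37.3 CPM and WLS at 30.8, 47.1 and 98.2 CPM. HAND1 was at 5.76, 9.42 and 13.6 CPM and MSX1 at 9.80, 15.3 and 27.4 CPM. LEFTY1 ran the other way, at 48.4, 27.9 and 14.9 CPM, as did SOX2, at 163, 132 and 89.4 CPM. POU5F1 stayed at 1160, 1151 and 1120 CPM, and ID1 was at 794, 850 and 759 CPM. The median depth of the 3 strata was 64396, 62447 and 73677 UMIs. MIXL1 differed less between the strata, at 35.7, 35.2 and 44.1 CPM. By GATA3, cells with 1, with 2 to 3 and with 4 or more UMIs (109, 166 and 133 cells) had CDX2 at 15.7, 14.5 and 27.1 CPM and MSX1 at 7.33, 12.3 and 24.4 CPM, with median depths of 50151, 62518 and 78424 UMIs. The strata are cut from the counts that chose the cells, so they are a description.

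**Figure D3:**
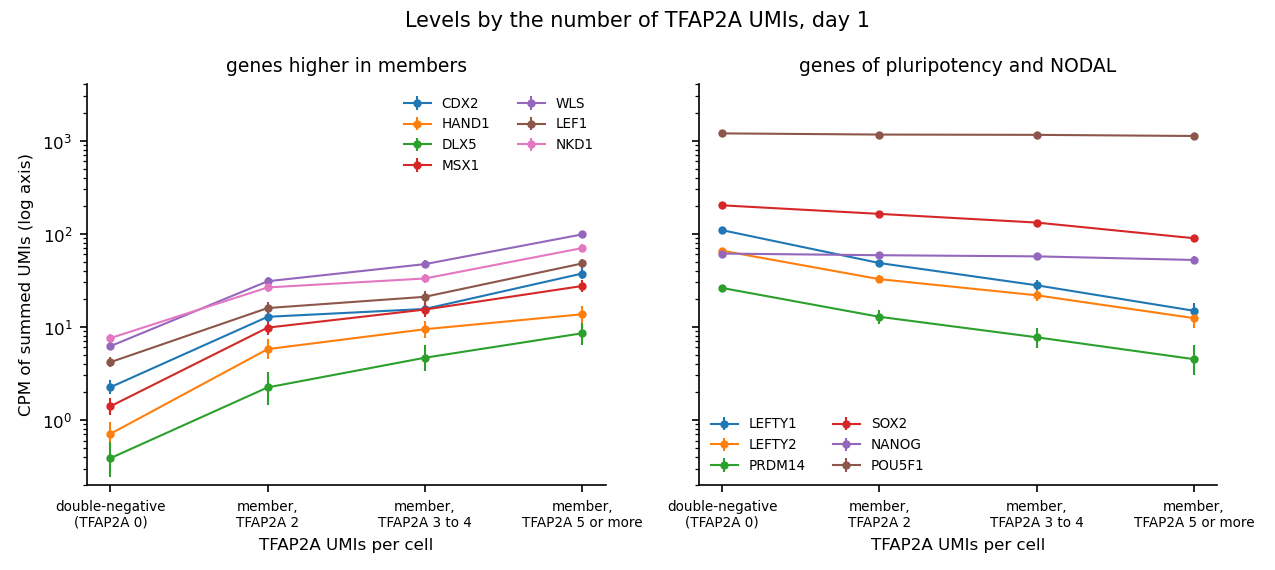
Levels (vertical log axis, CPM of summed UMIs, bars are exact Poisson 95% intervals) in double-negative cells and in double-positive cells with 2, 3 to 4, and 5 or more TFAP2A UMIs, for 7 genes that were higher and 6 of pluripotency and NODAL signalling. CDX2 ends at 37.3 CPM and LEFTY1 at 14.9 CPM in the highest stratum, while POU5F1 stays at 1120 CPM or more.

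The ratios were on the same side of 1 at every depth. When the double-positive cells were cut into 3 groups of 136 by depth and each was set against double-negative cells of the same depth range (1102, 233 and 84 cells), CDX2 was 9.23-fold, 14.8-fold and 10.9-fold higher from the shallowest to the deepest group. WLS was 9.17-fold, 14.1-fold and 10.1-fold higher, and MIXL1 7.79-fold, 5.16-fold and 6.80-fold. SOX2 was at 0.522, 0.643 and 0.588 times and LEFTY1 at 0.141, 0.415 and 0.254 times.

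Some double-positive cells had UMIs of both amnion and streak genes, by gene sets chosen after their values were seen. The count was near the product of the shares, which takes no account of the spread in depth. Of the 408 double-positive cells 249 had a UMI of HAND1, GATA2, DLX5 or ISL1, 259 had a UMI of MIXL1, TBXT or EVX1, and 176 (43.1%) had both, where the product of the shares gives 158. In the 408 depth-paired double-negative cells these counts were 70, 75 and 20, with 12.9 for the product. All 3 of POU5F1, NANOG and SOX2 had a UMI in 347 (85.0%) of double-positive and 375 (91.9%) of paired double-negative cells, and 139 double-positive cells had all 3 together with a UMI of each of the other sets. The part of doublets and free RNA in these counts was not tested. Removing the 144 cells with the highest doublet scores took out 14 double-positive cells and left 251 genes higher and 75 lower.

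The 259 double-positive cells with a streak UMI differed from the 149 without it, at like depth (medians of 66006 and 65525 UMIs). CDX2 was at 28.4 CPM with and 4.00 CPM without, 7.10-fold (5.12 to 10.1), MSX1 at 23.0 and 3.18 CPM and HAND1 at 12.5 and 2.36 CPM. LEF1 was 5.45-fold and SP5 5.27-fold higher. SOX2 was at 102 CPM with and 194 CPM without. GATA2, at 8.10 and 9.14 CPM, and ID1, at 796 and 819 CPM, did not follow, and TFAP2A and GATA3 were 1.25-fold and 1.20-fold higher. Leaving cells with a streak UMI out of both classes left 138 genes higher and 32 lower, and a median log2 ratio of 1.19 for amnion and 1.02 for streak genes, an alternative chosen after seeing the data.

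The nearest neighbours of double-positive cells were of mixed class. In principal components made without TFAP2A and GATA3, on cells thinned to 10000 UMIs, 23.4% of the 15 nearest neighbours of a double-positive cell were double-positive, against 18.99% for TFAP2A-only, 8.54% for GATA3-only and 6.44% for double-negative cells, where 11.4% of all these cells were double-positive. Most neighbours of a double-positive cell were thus cells outside the rule. Many members stood close to the threshold, so like cells can fall outside it. The shares therefore cannot show whether the double-positive cells form a group.

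Of 9 neural crest genes 4 reached 2 CPM, of which MSX1, PAX3 and SOX9 (1.55-fold) were higher and FOXD3 lower. Their median log2 ratio was 1.41 (0.89 to 1.94), and the 3 higher ones passed 2 CPM only in double-positive cells. For all genes at 2 CPM the shares were 4.31% higher and 1.34% lower. Of 7 neural ectoderm genes 1 reached 2 CPM, SOX3, and it was 1.71-fold higher, at 4.01 and 2.35 CPM. Defining markers of other cell types were mostly near 0. Their UMIs are out of 26908668 in double-positive and 59258872 in double-negative cells, so the raw counts of the classes cannot be compared as levels. SOX10 of neural crest had 15 UMIs in double-positive and 20 UMIs in double-negative cells, and FOXA2 of endoderm had 1 and 3. SOX1 had 0 in both classes and PAX6 of neural ectoderm 2 and 6. Of 12 trophoblast genes 4 reached 2 CPM and 1, GATA2, was higher, while CGA, which encodes a chorionic gonadotropin subunit, had 0 and 2 UMIs and the placental factor GCM1 had 2 and 3. SOX17, a factor of endoderm and germ cells, had 23 UMIs in 20 double-positive cells and 2 UMIs in double-negative cells, 25.3-fold (6.26 to 222). The primordial germ cell list had 5 measured genes, with 0 higher and 0 lower. PAX3 was 4.52-fold higher, at 2.82 and 0.624 CPM, and 1 cell gave 23.7% of its UMIs, and GRHL3 of surface ectoderm was 3.73-fold higher, at 6.35 and 1.70 CPM. No cell type name is given to the cells here beyond their 2 rule genes, since streak and pluripotency genes were present beside HAND1, DLX5, GATA2 and ISL1.

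Epithelial, cycle and stress genes had lower medians than the amnion, BMP response, streak and WNT response lists. For all genes at 2 CPM the shares were 4.31% higher and 1.34% lower. Of 16 measured epithelial genes 1 was higher, the desmosomal DSP at 1.79-fold, and 0 were lower, with a median log2 ratio of 0.14, and CDH1 was at 91.9 and 62.3 CPM. Of 10 mesenchymal genes ZEB2 and CDH11 were higher, with a median of 0.15, and VIM was at 411 CPM in double-positive and 606 CPM in double-negative cells. All 15 S phase and 15 G2/M phase genes lay within 1.5-fold, with medians of 0.05 and 0.08. Of 10 genes of the integrated stress response DDIT3, ASNS and DDIT4 were higher, with a median of 0.39. Of 17 YAP-TEAD target genes 3 were higher, among them AMOTL2 at 1.81-fold, and 2 lower, with a median of 0.00, and none of 12 FGF response, 12 hypoxia or 11 basement membrane genes passed the fold.

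The rule was also applied to days 2 and 3, libraries that did not choose these genes. There 227 of 7892 kept cells (2.88%) and 217 of 7261 (2.99%) were double-positive, at medians of 23836 and 25198 UMIs, so that a cut in UMIs asks for a higher level than at day 1. TFAP2A was at 106 and 114 CPM in them. At day 2, 251 of 9775 genes (2.57%) were higher than in double-negative cells of the same day and 206 (2.11%) lower, and at day 3 1036 of 10059 (10.3%) and 524 (5.21%). Of the 239 genes higher at day 1, 226 had 10 CPM at day 2, of which 77 (34.1%) were higher and 0 lower, and 217 had 10 CPM at day 3, of which 84 (38.7%) were higher and 23 (10.6%) lower. Of the 70 genes lower at day 1, 54 had 10 CPM at day 2, of which 28 (51.9%) were lower and 1 (1.85%) higher. At day 3, 35 of the 70 had 10 CPM, of which 10 (28.6%) were lower and 10 (28.6%) higher.

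BMP response and amnion genes stayed above the double-negative level at each day, and trophoblast genes stood above it at days 2 and 3. Of 5 measured trophoblast genes 5 were higher at each of those days, with median log2 ratios of 1.59 and 2.76. A median above the double-negative level at those days was therefore not particular to the amnion list, and GATA2 is in both lists. The amnion median was 1.88, 1.56 and 2.68 at days 1, 2 and 3 and the BMP response median 1.12, 0.87 and 0.88, where the medians of all genes at 2 CPM were 0.06, -0.02 and 0.01. Of all genes at 2 CPM 4.69% were higher and 5.92% lower at day 2, and 14.1% and 8.18% at day 3. Of amnion genes 15 of 17 were higher at day 2 and 14 of 18 at day 3, with 1 lower at each. The 2 CPM could be met in either class, so any list member below it in double-negative cells had to be higher. How many did so was not counted at days 2 and 3, and the list counts of those days are a description only. At day 3 the genes that lay within 1.5-fold or below 2 CPM at day 1 were far apart. IGFBP3 was at 128 CPM in double-positive and 1.77 CPM in double-negative cells, 72.3-fold (59.2 to 89.1), KRT7 at 25.4 and 0.483 CPM, 52.6-fold, and GABRP at 32.3 and 1.17 CPM, 27.5-fold. Epithelial genes went the same way, with medians of 0.14, 0.30 and 1.67 and CDH1 5.44-fold higher at day 3. Of surface ectoderm genes 9 of 9 were higher at day 3, TP63 among them at 20.8 and 0.418 CPM. Like IGFBP3, KRT7 and GABRP, TP63 reached 2 CPM at day 3 only in double-positive cells.

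The streak list as a whole stood above the double-negative level at day 1, and at the later days its members were split. Of 15 measured, 3 were higher and 2 lower at day 2, and 4 were higher and 6 lower at day 3. Higher at both later days were CDX2, at 3.05-fold and 2.63-fold, and CDX1, at 1.69-fold and 1.54-fold, joined by EVX1 at day 2 and by NODAL and NKX1-2 at day 3. Of 13 WNT response genes 3 were higher and 3 lower at day 2, and 1 was higher and 5 lower at day 3. The streak median was 1.99, -0.02 and -0.25, that of WNT response genes 1.81, 0.05 and -0.23 and that of mesoderm genes 0.99, -0.38 and -0.94. MIXL1 was at 37.6 CPM in double-positive and 6.43 CPM in double-negative cells at day 1, at 288 and 339 CPM at day 2 and at 249 and 428 CPM at day 3. Its level was thus higher at days 2 and 3 than at day 1 in both classes, and the order of the classes turned round. WLS kept a ratio of 2.26 at both days and WNT5B of 2.21 and 2.25. LEFTY2, low in double-positive cells at day 1, was 2.69-fold higher at day 2 and 3.71-fold at day 3. Differences between days are between single libraries and were not tested.

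**Figure D4:**
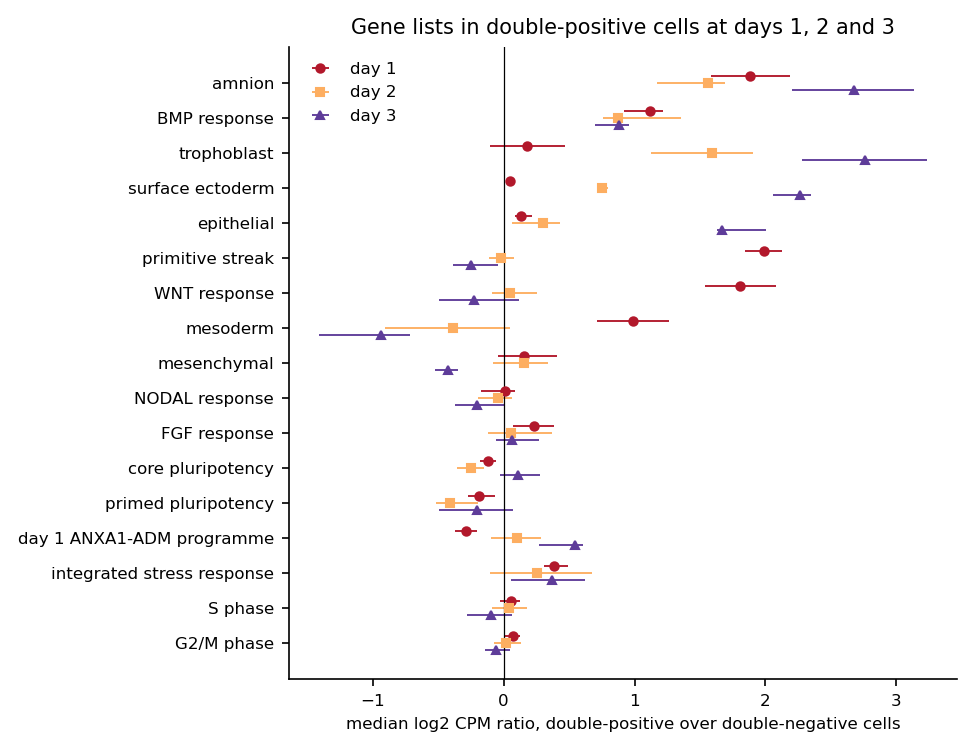
Median log2 CPM ratio of double-positive over double-negative cells (horizontal axis) for 17 gene lists (rows) at days 1, 2 and 3, with bars from the median of the lower and of the upper 95% limits of the genes. The amnion list lies at 1.88, 1.56 and 2.68 and the primitive streak list at 1.99, -0.02 and -0.25. The row named day 1 ANXA1-ADM programme is a list taken from earlier results of these data, and lies at -0.28 on day 1.

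**Figure D5:**
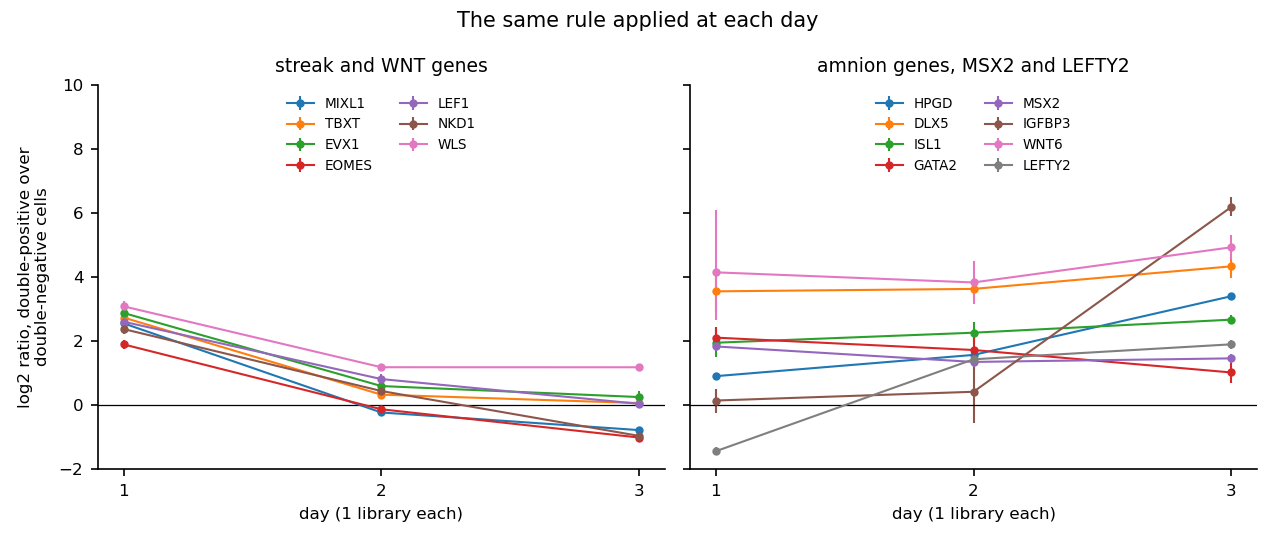
Log2 ratio of double-positive over double-negative cells (vertical axis) at days 1, 2 and 3 (horizontal axis, 1 library each) for streak and WNT genes (left) and for amnion genes, MSX2 and LEFTY2 (right), with 95% counting intervals. WLS is 8.45-fold higher at day 1 and 2.26-fold at day 3, while IGFBP3 is 1.10-fold at day 1 and 72.3-fold at day 3.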

How the data were processed

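Per the labels, 3 10x libraries of UCLA1 cells were sequenced, 1 a day. The authors deposited UMI count matrices, and Cell Ranger 5.0.1 and hg38 are named in the submitters' processing notes. The sources used here do not say whether the libraries were made in 1 run. A barcode was kept from 1000 genes upward if its mitochondrial share did not pass 20%, leaving 3677 of 4889, 7892 of 10580 and 7261 of 7860 barcodes at days 1, 2 and 3. The members and gene lists were chosen with earlier results of these data known.

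UMIs were summed per class, and ratios of CPM (UMI counts per 1000000 summed) were given with exact 95% conditional binomial intervals, and levels and shares with exact Poisson and binomial ones. A gene was called past a ratio of 1.5 with at least 10 CPM in either class (2 CPM for list members), and the interval was not used in the call. Over 33 gene lists, counts and medians were taken. The 15 highest and 15 lowest genes were named by the less extreme of the ratios to all and to depth-paired double-negative cells, at 20 CPM or more. Left out were TFAP2A, GATA3, XIST, TSIX and Y-linked genes. Pairing took the nearest total of UMIs without replacement. Automatic doublet calls by Scrublet marked 0 cells and so did not work, and removal of the 144 highest scores, at 0.8% per 1000 barcodes, was an alternative. Some of the genes that met these rules are not reported here. Gene positions were found for 365 of 365 genes. Ratios were tested on simulated data. Tools were Python 3.11.15, numpy 2.4.6, scipy 1.17.1, scikit-learn 1.9.0, scanpy 1.11.5 and edgeR 4.0.16, the last for TMM scaling only.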

Additional observations from a re-analysis of the deposited data

Results flagged for a closer look

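Some genes and 1 gene list lay on opposite sides of 1 at different days, at least 1.5-fold on each side for a gene. The difference between days was not tested, since each day is 1 library. Higher in double-positive cells at day 1 and lower at day 3 were MIXL1 at 0.581 times the double-negative level, NKD1 at 0.512, EOMES at 0.495 and FBN2 at 0.446. Lower at day 1 and higher later were LEFTY2, 2.69-fold at day 2 and 3.71-fold at day 3, ROBO2, 2.31-fold at day 3, and EDNRB, 4.48-fold at day 3. The mesoderm list had a median log2 ratio of 0.99 at day 1 and -0.94 at day 3. At day 1, 2 of its 6 measured genes reached 2 CPM only in double-positive cells.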

How the results depend on the processing

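The named genes were picked for extreme ratios to all and to depth-paired double-negative cells, and the depth-paired comparison is also an alternative here. An unchanged direction is therefore no support for them. No named gene changed direction under the alternatives that gave it a value, but 11 of 33 list medians changed sign under at least 1. For 10 of them the median was within 0.15 of 0 on the log2 scale, among them NODAL response (0.01, to -0.24), primordial germ cell (-0.15, up to 0.38) and G2/M phase genes (0.08, to -0.02). The definitive endoderm list, with 2 measured genes, went from 0.38 to between -1.35 and -0.57 under 3 alternatives, -1.26 with cells thinned to 10000 UMIs. With the rule applied after thinning to 20000 UMIs, 94 cells remained (2.89% of cells), 682 genes were higher and 278 lower, and median log2 ratios were 2.40 for amnion, 1.75 for streak and 1.28 for BMP response genes. At 3 TFAP2A and 2 GATA3 UMIs these were 4.81% of cells, 449, 118, 2.44, 2.23 and 1.28, with 2.30 for WNT response genes. At 1 UMI of each gene, 22.0% of cells met the rule. Summing cells thinned to 10000 UMIs gave 129 genes lower, and medians of 2.27 for amnion, 1.22 for BMP and 2.12 for WNT genes. Depth-paired cells gave a streak median of 2.18. A minimum of 50 CPM (10 CPM for lists) left 49 genes higher and 18 lower and an amnion median of 1.36, and no minimum gave 4631, 4934 and a streak median of 1.70. Core pluripotency stood at -0.18 under TMM scaling and at -0.19 under median of ratios. Chosen after seeing the data were the exclusion of cells with a MIXL1, TBXT or EVX1 UMI (138 higher, 32 lower, amnion 1.19, streak 1.02, WNT 1.09) and the comparison with all other day 1 cells (146, 33, 1.27, 1.39, 1.41, and BMP 0.78). The causes were not tested. Neural ectoderm genes after thinning and TFAP2 family genes with no minimum gave no finite median. No paired analysis was possible because each day is 1 library. Low genes such as TFAP2B and VTCN1 are limited by depth.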
